A study of Homo sapiens with 6 samples.

Results

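The kallikrein locus genes KLK1, KLK2, KLK3, KLK4, KLK15, KLKP1, KLK10 and KLK11 were followed in C4-2 cells under androgen. They were taken as a list of symbols from the table of gene counts, where they are 8 of 55765 symbols. C4-2 is a castration-resistant subline of the human prostate cancer cell line LNCaP, so all libraries come from 1 cell line. The question was how the transcriptome responds to a supraphysiological androgen level (SAL). Cells grown in DMEM with 5% FBS were treated for 72 h with R1881 (methyltrienolone, a synthetic androgen) at 1 nM, or with the solvent DMSO. Total RNA was sequenced in triplicate, giving 3 DMSO and 3 SAL libraries numbered 1 to 3 in each group. Whether the serum was depleted of steroids is not given in the sources used here.

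Tissue kallikreins are secreted serine proteases, made as inactive precursors and encoded side by side in a single cluster on chromosome 19. In the prostate lumen they form a proteolytic cascade that liquefies the seminal clot, and KLK3 (prostate-specific antigen, PSA) is the serum marker of prostate cancer. Several of these genes carry androgen response elements, DNA sites through which androgens act on transcription, and KLK3 is the textbook androgen-induced gene of the prostate.

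In the GRCh37 assembly the cluster spans 265 kb from 51322402 to 51587502 of chromosome 19 and holds 16 KLK genes and pseudogenes. KLK3 (51358171 to 51364020) and KLK2 (51364824 to 51383823) are the 2 on the plus strand, and the other 14 lie on the minus strand. KLK15 (51328545 to 51340469) and KLK1 (51322402 to 51327043) lie on the centromeric side of KLK3, with 17701 bases between KLK15 and KLK3. KLKP1 (51385352 to 51399654), a transcribed pseudogene, ends 1528 bases beyond the end of KLK2, and KLK4 (51409607 to 51414651) starts 56.5 kb from the KLK3 start. KLK10 (51515995 to 51523431) and KLK11 (51525472 to 51531295) lie 165 and 172 kb from it.

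The 250 bases before the annotated start are shown for KLK3 and KLK2, because these are the most abundant members and resemble each other in sequence. The windows are chr19:51357921-51358170 on the plus strand for KLK3 and chr19:51376445-51376694 on the plus strand for KLK2, in GRCh37. The KLK2 window precedes the start of its canonical transcript, 18.5 kb from the KLK3 start, and not the start of the longest gene model. Capitals mark the best match in each window to the palindromic androgen response element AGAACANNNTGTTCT, searched at every position and scored over its 12 fixed letters of 15.
KLK3: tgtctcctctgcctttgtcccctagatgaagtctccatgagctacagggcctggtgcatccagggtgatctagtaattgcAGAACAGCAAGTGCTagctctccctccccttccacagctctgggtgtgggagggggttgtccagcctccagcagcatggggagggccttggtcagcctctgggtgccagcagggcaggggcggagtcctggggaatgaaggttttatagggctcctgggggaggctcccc
KLK2: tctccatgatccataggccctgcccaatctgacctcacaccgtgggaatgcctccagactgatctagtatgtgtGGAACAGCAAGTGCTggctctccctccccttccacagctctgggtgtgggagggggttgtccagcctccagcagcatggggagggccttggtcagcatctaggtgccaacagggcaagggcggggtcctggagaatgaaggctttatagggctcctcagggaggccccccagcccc

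The KLK3 window is identical to that of KLK2 over 85.1% of aligned bases (205 of 241). The KLK3 match lies at bases -170 to -156 from the start (51358001 to 51358015) and differs from the motif at 2 letters, T10A and T13G, counted from 1 at the motif's left end. A match at least as good was found in 0.79% of the 19862 protein-coding windows of the same length. The KLK2 match lies at -176 to -162 (51376519 to 51376533) and has the same substitutions plus A1G, a score reached by 6.62% of windows. The best matches of KLK4, KLK15, KLK11 and KLKP1 had 5 mismatches, as in 79.5% of windows, and that of KLK10 had 4, as good as 33.2% of windows. Within the 5 kb before each member's start, the KLK3 site was the only match with at most 2 mismatches, whereas 25.6% of protein-coding genes hold at least 1. A letter match is a description of these windows and not a measurement of binding.

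Gene counts per library ranged from 7864471 to 11317210 for DMSO and from 9921828 to 12532355 for SAL, of which 11.9% to 27.8% fell on ribosomal RNA genes that were removed before testing. Levels are given as CPM (counts scaled to a common library size) of the remaining reads with TMM scaling, and 3 counts equal 0.329 to 0.410 CPM. All 7 luminal prostate markers were above 1 CPM on average, with a summed level of 1857 to 3208 CPM in DMSO and 2950 to 6523 in SAL. The basal and the leukocyte markers each summed to at most 0.534 CPM, with KRT5, PTPRC and CD3E at 0 in all libraries. The fibroblast markers summed to 1.86 to 10.3 CPM in DMSO and 2.18 to 9.65 in SAL with COL1A2 at 0, and the endothelial marker VWF had at most 3.84 CPM. In bulk RNA, a change in the number of cells expressing a gene and a change in RNA per cell cannot be told apart.

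Of the 8 members, 5 had enough counts to be tested, and 3 of these (KLK3, KLK2 and KLK4) were higher in SAL by edgeR's quasi-likelihood test with replicate number as a block (adjusted p under 0.05). None was lower. Across all 16835 genes tested, 20.8% passed the threshold, 11.5% upward and 9.37% downward. The median log2 fold change was 0.52 over the 5 tested members and -0.0011 over all genes. Each of the 5 differed in the same direction in all 3 replicate pairs, as did 51.2% of all tested genes. DESeq2 with the block called the same 3 members and 13.3% of all genes. Without the replicate block no member passed in edgeR, 1 had an unadjusted p under 0.05, and 21 of all genes passed (0.125%). KLK15 and KLKP1 were tested and did not pass, KLK1 was detected below the filter, and KLK10 and KLK11 had no counts.

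KLK3, which encodes PSA, had 4741, 8779 and 4580 counts in DMSO libraries 1, 2 and 3 and 11571, 23122 and 11449 in SAL libraries 1, 2 and 3. These are 587, 1200.4 and 612 CPM in DMSO and 1482, 2535 and 1411 CPM in SAL. Every SAL library was above every DMSO library, a separation in this direction seen for 3.78% of tested genes, and library 2 was the highest of both groups. The group means were 800 ± 347 CPM and 1809 ± 630 CPM (SD, n = 3). KLK3 rose 2.31-fold, by 1.21 on the log2 scale (SE 0.10, adjusted p = 3.33e-07 by edgeR's quasi-likelihood test). Among all tested genes, 97.4% had a lower log2 fold change and 432 had a higher one. Within the replicate pairs the log2 differences were 1.33, 1.08 and 1.20. On the unpaired CPM of this gene alone, the 2-sided exact permutation test gave p = 0.1, the smallest that 3 against 3 libraries allow.

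KLK2, which encodes human glandular kallikrein 2, a trypsin-like protease able to activate the PSA precursor, had 2341, 5966 and 3550 counts in DMSO and 4486, 10897 and 6585 in SAL. Its levels were 290.04, 816 and 474 CPM in DMSO and 574, 1195 and 811 CPM in SAL. The groups overlapped, since DMSO library 2 exceeded SAL libraries 1 and 3, but SAL was higher in each of the 3 pairs, as for 25.9% of tested genes. The means were 527 ± 267 and 860 ± 313 CPM (SD, n = 3), and the log2 fold change was 0.77 (SE 0.10, 1.70-fold, adjusted p = 5.79e-05 by edgeR's quasi-likelihood test). The paired differences ranged from 0.55 in pair 2 to 0.99 in pair 1, with an SD of 0.22 against 0.13 for KLK3.

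KLK4, a trypsin-like protease expressed in prostate and in developing enamel, had 418, 680 and 574 counts in DMSO and 499, 1328 and 941 in SAL. Its levels were 51.8, 93.0 and 76.7 CPM in DMSO and 63.9, 146 and 116 CPM in SAL. SAL library 1 lay inside the DMSO range, and SAL was again higher in each pair, by 0.30, 0.65 and 0.59 on the log2 scale. The log2 fold change was 0.52 (SE 0.10, 1.44-fold, adjusted p = 0.00162 by edgeR's quasi-likelihood test). Without the libraries of replicate 3 it was 0.48 (SE 0.17) with an adjusted p of 0.106, in a fit that called 1233 genes in all against 3508.

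KLK15, another trypsin-like kallikrein that can activate the PSA precursor, was far lower, with 30, 65 and 36 counts in DMSO and 33, 113 and 48 in SAL (3.72, 8.89 and 4.81 CPM against 4.23, 12.4 and 5.91 CPM). The groups overlapped and library 2 was the highest of each. The log2 fold change was 0.35 (SE 0.21, adjusted p = 0.284 by edgeR's quasi-likelihood test), positive in each pair and not past the threshold.

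KLKP1, the pseudogene between KLK2 and KLK4, differed in the opposite direction, with 110, 80 and 120 counts in DMSO and 80, 92 and 82 in SAL (13.6, 10.9 and 16.0 CPM against 10.2, 10.1 and 10.1 CPM). Every SAL library was below every DMSO library, as for 3.73% of tested genes, and SAL was lower in all 3 pairs, as for 25.3%. KLK3 and KLKP1 were the 2 of 5 tested members whose groups did not overlap in either direction, against 7.51% of all tested genes. The difference did not pass the threshold over all genes (log2 fold change -0.40, SE 0.18, adjusted p = 0.125 by edgeR's quasi-likelihood test). KLKP1 was also the member without a peak in library 2, where it had its lowest DMSO level.

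KLK1, the renal and pancreatic kallikrein that releases kinins, had 6, 9 and 7 counts in DMSO and 3, 5 and 4 in SAL (0.743, 1.23 and 0.935 CPM against 0.384, 0.548 and 0.493 CPM). The groups did not overlap, with SAL lower, as for 3.73% of tested genes, a share that leaves out genes under the filter. KLK1 itself lay under the filter on low counts. Fitted without the filter it had a log2 fold change of -0.99 (SE 0.67, adjusted p = 0.519 by edgeR's quasi-likelihood test). KLK10 and KLK11, which are known from skin and other epithelia, were at 0 in all 6 libraries. A count of 0 in a library leaves room for an expected count of up to 3 there, which is 0.329 to 0.410 CPM. A level below this could therefore go uncounted in a single library.

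**Figure D1:**
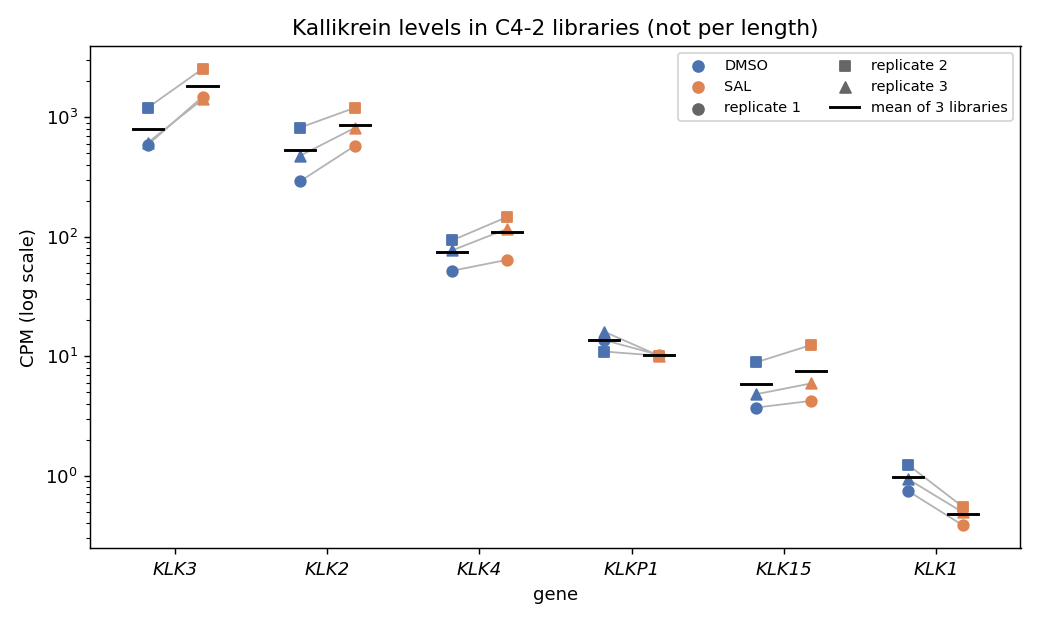
Level of each detected kallikrein member in the 3 DMSO and 3 SAL libraries, in CPM on a log axis, with lines joining libraries of the same replicate number and bars at the group means. KLK3 separates the groups upward (587 to 1200.4 CPM in DMSO, 1411 to 2535 in SAL), KLK2, KLK4 and KLK15 overlap with every line rising, and KLKP1 and KLK1 are lower in SAL.

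The remaining kallikreins of the cluster were almost silent. KLK5, KLK6, KLK7, KLK8, KLK9, KLK12, KLK13 and KLK14, mostly proteases of skin and other stratified or glandular epithelia, together had 0 to 9 counts per library against 7646 to 35557 for the 8 members. None of them reached the filter, so edgeR tested 0 of 8 and none could pass, at an adjusted or an unadjusted threshold, and the same held with DESeq2. KLK7, KLK8 and KLK9 were at 0 in every library, and KLK14 had the highest single value, 7 counts in DMSO library 2.

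Per kilobase of annotated exon the members fell into an order that was the same in 6 of 6 libraries. In DMSO the mean levels per kilobase were 172 ± 74.8 CPM for KLK3, 82.9 ± 42.002 for KLK2, 36.8 ± 10.4 for KLK4, 7.08 ± 1.33 for KLKP1, 1.86 ± 0.874 for KLK15 and 0.407 ± 0.103 for KLK1 (SD, n = 3). In SAL they were 390 ± 136, 135 ± 49.3, 54.1 ± 20.6, 5.31 ± 0.0455, 2.41 ± 1.38 and 0.200 ± 0.0351 CPM per kilobase. In DMSO the ranges of the neighbours KLK3 and KLK2 overlapped, as did those of KLK2 (from 45.7) and KLK4 (up to 46.4 CPM per kilobase), although the order held within each library. The ranges of the other neighbours in DMSO, and of all neighbours in SAL, did not overlap. The exon lengths come from a newer annotation than the one counted, so levels per kilobase are approximate. With the canonical transcript in place of all exons, a length chosen after seeing the data, the DMSO means were higher, at 546 CPM per kilobase for KLK3, 186 for KLK2 and 52.1 for KLK4. The order under that length was the same in 5 of 6 libraries, the exception being SAL library 2, where KLK15 (9.13) stood just above KLKP1 (8.97 CPM per kilobase). Among 34898 genes with a known length, KLK3 ranked 301, 68 and 124 by level per kilobase in DMSO and 94, 36 and 45 in SAL.

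KLK3 and KLK2 together made up 91.7% to 96.3% of the reads on the 8 members. The members took 0.0934%, 0.218% and 0.128% of the counts outside ribosomal RNA genes in DMSO libraries 1, 2 and 3, and 0.206%, 0.364% and 0.233% in SAL. The KLK3 share of member reads was 62.0%, 56.4% and 51.7% in DMSO and 69.4%, 65.0% and 59.9% in SAL, so it was higher in SAL in each pair, and the KLK2 share was lower in each pair.

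A ratio of counts within a library needs no normalization between libraries. For every 100 KLK3 reads there were 49.4, 68.0 and 77.5 KLK2 reads in DMSO and 38.8, 47.1 and 57.5 in SAL. The ratio was lower in SAL in all 3 pairs, with log2 differences of -0.35, -0.53 and -0.43 (mean -0.44, SD 0.09), while the groups overlapped. KLK4 went from 8.82, 7.75 and 12.5 reads per 100 KLK3 reads in DMSO to 4.31, 5.74 and 8.22 in SAL. For KLK15 the ratio was 0.633, 0.740 and 0.786 in DMSO and 0.285, 0.489 and 0.419 in SAL. KLKP1 had 2.32, 0.911 and 2.62 reads per 100 KLK3 reads in DMSO and 0.691, 0.398 and 0.716 in SAL. The KLK15 and KLKP1 ratios did not overlap between the groups. Of all other tested genes, 92.7% likewise had a lower ratio to KLK3 in SAL in each pair, and 35.2% had all SAL ratios below all DMSO ratios. The 2-sided exact sign-flip permutation test gave p = 0.25 for each of the 4 ratios, and 0.25 after adjustment over the 4, which is the smallest p that 3 pairs allow.

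**Figure D2:**
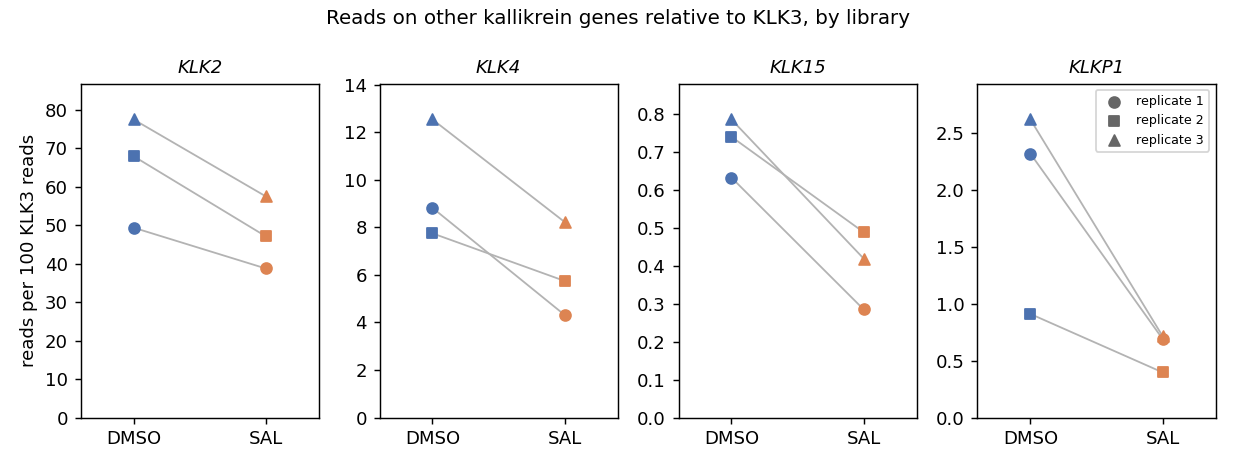
Reads of KLK2, KLK4, KLK15 and KLKP1 per 100 KLK3 reads in each library, on linear axes from 0, with lines joining libraries of the same replicate number. Every line falls from DMSO to SAL, and the groups overlap for KLK2 and KLK4 only.

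The 2 most expressed members are close paralogs, and reads from a shared stretch could be assigned to neither or to the wrong gene. Their coding sequences were identical at 85.3% of positions (668 of 783), more than any other pair of members, of which KLK2 and KLK1 came next at 76.5%. Of 5074 distinct 50-base stretches in KLK3 transcripts, 11 (0.217%) also occurred in KLK2 and in no other gene. In KLK2, 31 of 6861 (0.452%) occurred elsewhere. KLK4, KLK15, KLK1 and KLKP1 shared no 50-base stretch with another gene, and apart from KLK10, which overlaps a long non-coding RNA, no member's exons overlapped those of another gene. The paper's methods describe trimming of low-quality read ends, and reads cut below 50 bases could be shared more often than these stretches show. Reads were counted without regard to strand, so unannotated antisense RNA would be included.

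The members varied with replicate number as well as with treatment. Of the variation of log2 CPM over the 6 libraries, treatment took 66.3% and replicate number 33.2% for KLK3. For KLK2 the order was turned, with 34.7% for treatment and 63.4% for replicate number, and for KLK4 the shares were 26.2% and 71.5%. KLK15 varied almost wholly with replicate number (92.1%). For KLKP1, lower in SAL, treatment took 60.7% and replicate number 20%. For KLK1, also lower in SAL but with only 3 to 9 counts per library, the shares were 78.5% and 19.8%. KLKP1 had the largest share that neither term took, 19.3%, against 0.499% to 2.27% for the other detected members. The medians over all tested genes were 5.88% for treatment and 85.4% for replicate number. Library 2 was the highest in both groups for KLK3, KLK2, KLK4, KLK15 and KLK1.

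The genes just outside the cluster gave no call. The annotation places 34 genes within 200 kb of its ends, of which 21 were in the count table, 11 of these at 0 in all libraries, and 5 could be tested. Of all tested genes, 20.8% passed the threshold in edgeR and 13.3% in DESeq2, both with the replicate block. None of the 5 neighbouring genes passed in either fit, and none had an unadjusted p under 0.05 in either. The most expressed, C19orf48, had 136, 312 and 181 CPM in DMSO and 128, 375 and 185 in SAL, with a log2 fold change of 0.07 (SE 0.10, adjusted p = 0.658 by edgeR's quasi-likelihood test). The values were 0.29 for CLEC11A, 0.08 for ACPT, -0.37 for SNORD88A and -0.42 for CTU1. CLEC11A passed the threshold without the libraries of replicate 1, at 1.32.

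**Figure D3:**
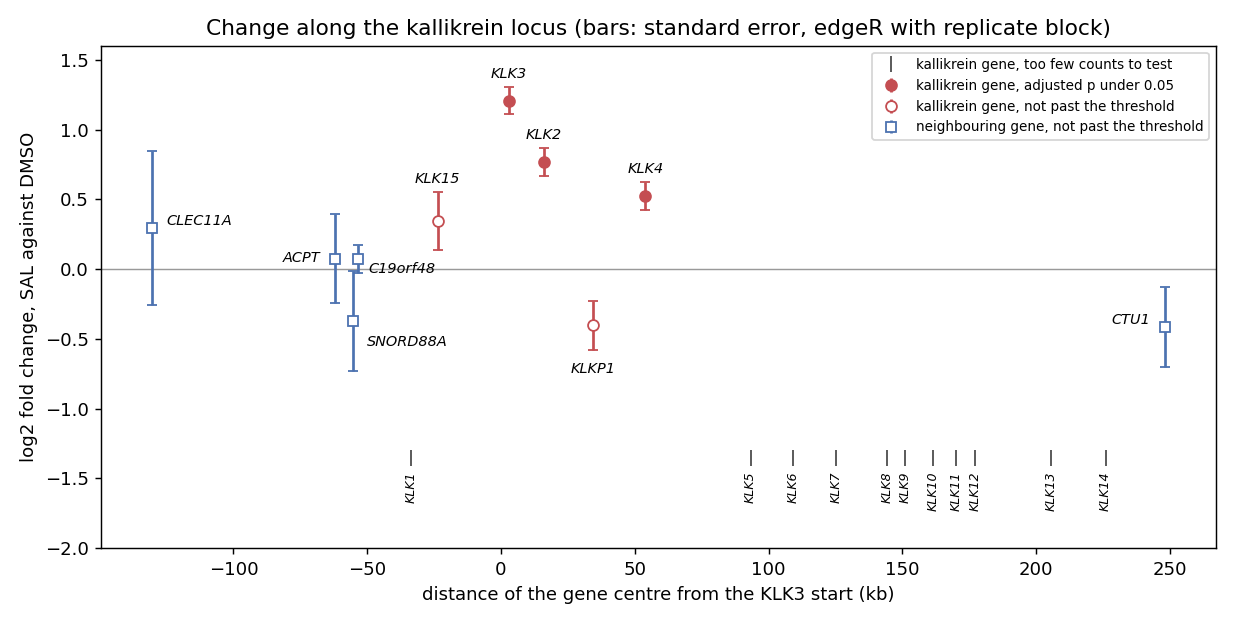
Log2 fold change of SAL against DMSO with its standard error for the tested genes of the kallikrein cluster and of the 200 kb on each side, against the distance of the gene centre from the KLK3 start in kb. KLK3, KLK2 and KLK4 are past the threshold (filled circles), KLK15, KLKP1 and the 5 neighbouring genes are not, and ticks mark kallikreins with too few counts.

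The genes whose profile over the 6 libraries was most like that of KLK3 were found by the root mean square difference of log2 CPM centred on each gene's mean, among 9664 genes with at least 100 counts on average. They were PNRC1, a nuclear receptor coactivator (0.0982), the related transcription factors CREB3 (0.157) and CREB3L4 (0.198), WIPI1, an autophagy protein (0.202), and ISG20, an exonuclease (0.221), where the median over these genes was 0.879. For KLK2 they were ZDHHC9 (0.0791), the cation channel gene TRPM4 (0.0965), the autophagy gene GABARAPL1 (0.127), TBC1D1 (0.150) and MAGED2 (0.152), against a median of 0.742. Likeness here covers both treatment and replicate number, and all libraries come from the same 3 pairs. By the same measure KLK2 and KLK3 lay 0.334 apart, so that KLK2 was number 34 in order of likeness to KLK3 and KLK3 number 349 in likeness to KLK2, and KLK2 lay closer to KLK4 (0.257) and KLK15 (0.298). KLKP1 lay 0.970 from KLK3.

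Genes that act with the kallikreins were listed by role, 27 in all. Of these, 15 could be tested, 7 rose and 2 fell, with a median log2 fold change of 0.33 against -0.0011 over all genes. Over all tested genes 11.5% rose and 9.37% fell, which is the background for the counts by role too. The list was drawn up with earlier results of these libraries known.

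Among 6 listed transcription factors of the KLK3 promoter and enhancer, 3 rose and 1 fell, and 4 of the 6 are described here. SPDEF, an Ets factor of luminal prostate cells, had 15.9, 53.7 and 33.1 CPM in DMSO and 56.5, 306 and 145 in SAL, and rose by 2.19 on the log2 scale (SE 0.12, adjusted p = 1.16e-08 by edgeR's quasi-likelihood test). All SAL libraries were above all DMSO libraries, as for 3.78% of tested genes. FOXA1, a pioneer factor, rose by 0.33 (adjusted p = 0.0204), a call lost without replicate 3. GATA2, another pioneer factor at androgen-regulated enhancers, fell by 0.83 on the log2 scale (adjusted p = 2.01e-05), from 80.8, 340.3 and 213 CPM in DMSO to 51.4, 192 and 107 in SAL. The value for HOXB13 was -0.07 (adjusted p = 0.684). Each p is from edgeR's quasi-likelihood test.

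Of 4 membrane-bound serine proteases related to the cascade, 3 rose. TMPRSS2, the androgen-regulated partner of ERG in prostate cancer gene fusions, had 66.8, 330.4 and 147 CPM in DMSO and 307, 1096 and 717 in SAL, a log2 fold change of 2.07 (SE 0.11, adjusted p = 9.14e-09 by edgeR's quasi-likelihood test). PRSS8 (prostasin) rose by 0.93 (adjusted p = 0.000571). HPN (hepsin), which can activate several zymogens, rose by 0.42 (adjusted p = 0.0103), but DESeq2 gave an adjusted p of 0.0649, and the edgeR call was lost without replicate 2 or replicate 3. The value for ST14 (matriptase) was 0.21 (adjusted p = 0.136).

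Of 9 substrates of the kallikreins 4 could be tested, of which 1 rose and 1 fell. SEMG1 and SEMG2, the seminal clot proteins that PSA cleaves, had at most 7 and 2 counts in a library, PTHLH had at most 9, and PLAU was at 0. F2RL1, a receptor opened by trypsin-like proteases, rose by 1.29 (SE 0.12, adjusted p = 1.31e-06 by edgeR's quasi-likelihood test). It had 36.5, 36.1 and 35.9 CPM in DMSO and 93.2, 70.8 and 104 in SAL. These groups did not overlap, a separation in this direction seen for 3.78% of tested genes. FN1, the matrix protein fibronectin, fell by 1.13 on the log2 scale (adjusted p = 1.87e-06), with 614, 4356 and 3371 CPM in DMSO and 338, 1830 and 1384 in SAL. The values for TGFB2 (1.05, adjusted p = 0.0579) and IGFBP3 (0.23, adjusted p = 0.486) did not pass in edgeR's quasi-likelihood test. The TGFB2 groups did not overlap either, with SAL higher. Of 8 kallikrein inhibitors only SERPINB6 could be tested (log2 fold change 0.27, adjusted p = 0.0631), and the other 7 had at most 6 counts in a library, among them SERPINA3, the main PSA-binding serpin of plasma.

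**Figure D4:**
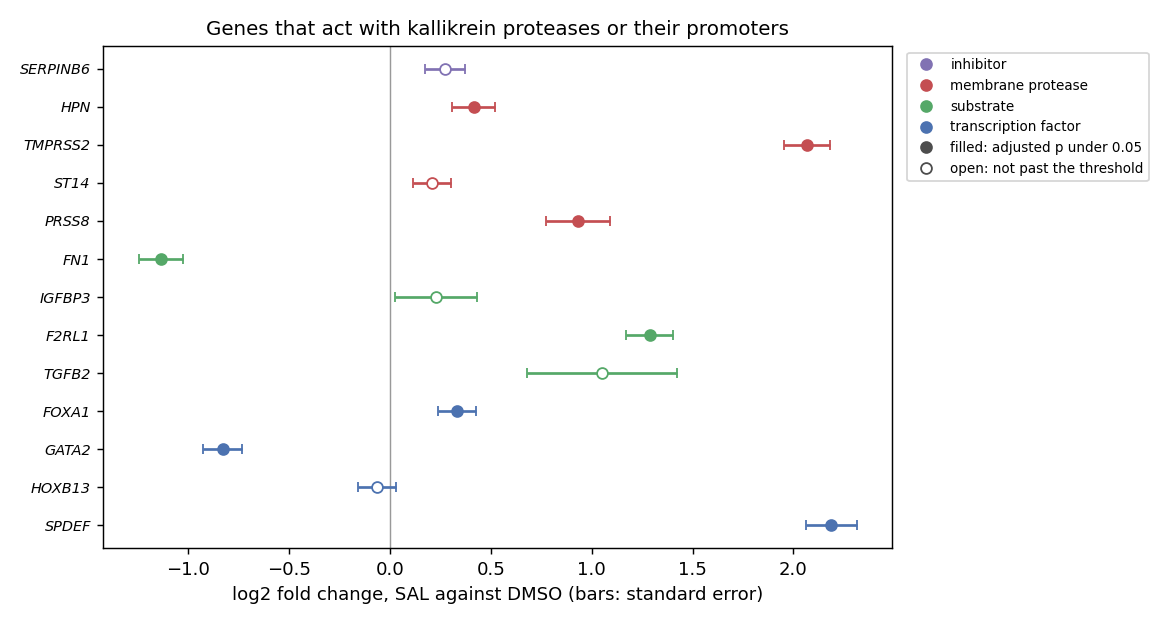
Log2 fold change of SAL against DMSO with its standard error for the tested genes described here that act with kallikrein proteases or at the KLK3 promoter, coloured by role, with filled points for adjusted p under 0.05. SPDEF (2.19) and TMPRSS2 (2.07) lie farthest to the right, and FN1 (-1.13) and GATA2 (-0.83) to the left.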

How the data were processed

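RNA of 3 DMSO-treated and 3 SAL-treated C4-2 cultures was analysed; LNCaP libraries were not analysed here. The deposited files hold raw counts of reads per gene symbol, made by the authors, per the submitters' processing notes with TopHat2 (2.1.0), Bowtie, HTSeq (0.11.2) and hg19. The authors counted the first read of each pair without regard to strand. HTSeq's tallies of unassigned reads and 523 ribosomal RNA symbols were left out.

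Counts were tested in R (4.3.3) with edgeR (4.0.16; TMM, filterByExpr, robust quasi-likelihood test, replicate number as a block because the study used a paired test) and adjusted by Benjamini-Hochberg over 16835 genes. The CPM and paired log2 differences use the same scaling, with a prior count of 2 for the log2 values. Same-numbered libraries deviated together from their group means (correlations 0.886, 0.856 and 0.739, against -0.823 to 0.0395 for differently numbered libraries). Deviations within a group sum to 0, so positive correlations of same-numbered libraries by construction push those of differently numbered libraries down. The paper's results section describes 3 independent RNA-seq experiments per condition, and its methods give triplicates. The labels do not say which cultures were separate. Alternatives were DESeq2 (1.42.0), its size factors, other filters, ribosomal genes kept, no block, and each replicate left out. On simulated counts, in a run of 16983 genes, 93% of 199 changed genes were called, and 4.64% of calls were unchanged genes. The simulation held far fewer changed genes than the 3508 called in the real data. Its values therefore do not give the error rate of the calls reported here.

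Positions, exon lengths and sequences are from the GRCh37 genome with a GENCODE annotation lifted to it, newer than the one counted; 33529 of 55765 symbols matched a current symbol. Named were all members, the other KLK genes, tested neighbours, genes listed by role, and the 5 genes most like KLK3 and KLK2. Members and lists were chosen with earlier results of these data known. Some listed genes and sequences are not reported here.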

Additional observations from a re-analysis of the deposited data

How the results depend on the processing

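Every tested member had the same direction of change under all alternatives run. KLK3 and KLK2 passed the threshold in each fit with the replicate block, with log2 fold changes of 1.14 to 1.25 and 0.66 to 0.86 when each replicate was left out. KLK4 ranged from 0.44 to 0.62 and did not pass without replicate 3. KLK15 ranged from 0.23 to 0.41, KLKP1 from -0.56 to -0.27, and the log2 difference of the KLK2 to KLK3 ratio from -0.48 to -0.39. In edgeR without the replicate block, 0 members passed (KLK3 1.18, KLK2 0.71, KLK4 0.56), of which 1 had an unadjusted p under 0.05, and 0 of the genes listed by role passed, of which 4 had one. That fit called 21 genes in all and DESeq2 with the block called 2240, against 3508. Leaving out each replicate gave 1233 to 4398 genes in all, 2 to 3 members, 0 to 1 neighbouring genes and 7 to 10 genes listed by role. The cause was not tested. KLK1 and the other low kallikreins are limited by depth, since 3 counts equal 0.329 to 0.410 CPM.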
